A study of Homo sapiens with 9 samples.

Results

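The 9 genes described here belong to antigen presentation by MHC class I molecules: HLA-B, HLA-C, B2M, TAP1, TAP2, TAPBP, PSMB8, PSMB9 and NLRC5. They were chosen by name, and each symbol matched 1 of the 57905 Ensembl gene IDs in the deposited count table. RNA was sequenced from A549, a line of human lung adenocarcinoma cells, in a study of the polyol pathway, in which aldose reductase (AKR1B1) turns glucose into sorbitol and sorbitol dehydrogenase (SORD) turns sorbitol into fructose. There were 3 libraries with an shRNA against AKR1B1 (shAKR1B1), 3 with an shRNA against SORD (shSORD) and 3 controls, titled plko and labelled as scrambled controls; the labels do not settle whether the control vector carried a hairpin. All were grown in medium with 5% serum, and no interferon or other stimulus is named. Only 1 shRNA label per target was used, so effects of a hairpin or of a cell population cannot be told apart from loss of the target. Separate transductions are not described, and the p-values therefore reflect how far these libraries scatter, which may be technical.

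Class I molecules show peptides from inside the cell to CD8+ T cells and are read by NK cells. A heavy chain, such as HLA-B or HLA-C, pairs with the light chain B2M. Peptides are cut by the proteasome, whose catalytic subunits PSMB5 and PSMB6 can be replaced by PSMB8 and PSMB9 to form the immunoproteasome. The TAP1 and TAP2 transporter carries peptides into the endoplasmic reticulum, where tapasin (TAPBP) helps load them. NLRC5 is the class I transactivator, and interferons induce the set, in part through IRF1.

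HLA-B, HLA-C, TAP1, TAP2, TAPBP, PSMB8 and PSMB9 lie on chromosome 6, B2M on chromosome 15 and NLRC5 on chromosome 16 (GENCODE release 29). Their IDs in the table are ENSG00000204525 (HLA-C), ENSG00000234745 (HLA-B), ENSG00000204267 (TAP2), ENSG00000204264 (PSMB8), ENSG00000240065 (PSMB9), ENSG00000168394 (TAP1), ENSG00000231925 (TAPBP), ENSG00000166710 (B2M) and ENSG00000140853 (NLRC5). RefSeq promoter windows (build GRCh38.p14, 250 bases before the start and 50 from it on) were held for 8 of the 9 genes, all but NLRC5. They were searched on both strands for the interferon-stimulated response element core GAANNGAAA, for the same letters with 1 further A after the first GAA, and for the NF-kappaB consensus. Of 34943 windows of this length, 10.6% held either interferon core and 7.72% the NF-kappaB consensus. An interferon core was found at 7 of the 8 genes (all but PSMB9), and the NF-kappaB consensus at 5 (HLA-B, HLA-C, B2M, TAP1 and TAPBP). A match describes these letters only. The upstream 250 bases of 4 genes are shown because they set the chains of the class I molecule beside TAP1, which moved differently from them with AKR1B1 knockdown. Capitals mark matches to an interferon core or to the NF-kappaB consensus on either strand.
HLA-B, chr6:31357180-31357429, minus strand: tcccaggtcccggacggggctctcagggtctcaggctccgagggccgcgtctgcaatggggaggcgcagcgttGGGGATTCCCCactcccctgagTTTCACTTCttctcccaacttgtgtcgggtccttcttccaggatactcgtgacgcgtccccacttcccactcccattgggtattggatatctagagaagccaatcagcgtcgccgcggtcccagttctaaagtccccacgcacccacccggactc
HLA-C, chr6:31272093-31272342, minus strand: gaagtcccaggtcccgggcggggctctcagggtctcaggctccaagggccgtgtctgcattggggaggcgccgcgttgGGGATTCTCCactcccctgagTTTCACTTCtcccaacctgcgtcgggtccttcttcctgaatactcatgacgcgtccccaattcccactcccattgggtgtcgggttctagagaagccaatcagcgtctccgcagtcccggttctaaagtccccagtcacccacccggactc
B2M, chr15:44711267-44711516, plus strand: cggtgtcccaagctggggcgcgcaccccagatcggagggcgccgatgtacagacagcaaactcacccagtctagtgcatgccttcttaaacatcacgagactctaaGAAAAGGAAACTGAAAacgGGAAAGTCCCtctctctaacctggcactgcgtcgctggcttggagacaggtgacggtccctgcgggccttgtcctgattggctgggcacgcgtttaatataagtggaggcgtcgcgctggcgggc
TAP1, chr6:32853705-32853954, minus strand: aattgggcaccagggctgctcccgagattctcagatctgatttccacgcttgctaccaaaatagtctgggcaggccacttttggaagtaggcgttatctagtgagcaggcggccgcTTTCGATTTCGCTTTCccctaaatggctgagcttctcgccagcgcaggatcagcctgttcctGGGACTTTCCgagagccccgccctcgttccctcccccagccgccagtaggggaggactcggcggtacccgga
The HLA-B and HLA-C windows were 88.5% identical over 304 aligned positions, with the interferon core beginning at -155 from the start in HLA-B and at -151 in HLA-C. TAP1 and PSMB9 are transcribed away from each other from starts 488 bases apart, and their windows shared 13 bases. The interferon core of TAP1 lay between these starts, beyond the end of the PSMB9 window. TAP1 and PSMB8 each had a second window, with no interferon core. Stretches of 30 bases around the cores of TAP2, TAPBP and PSMB8 follow, with the same capitals, because TAP2 and PSMB8 fell with AKR1B1 knockdown while TAPBP did not pass the test. B2M, TAP1, TAP2, TAPBP and PSMB8 each had a pair of overlapping core matches, and those of PSMB8 lay across its start.
TAP2, chr6:32838781-32838810, minus strand: tggctgggGAAGCGAAAGCGAAAgctgccc
TAPBP, chr6:33314077-33314106, minus strand: ctttggagGAAAGTGAAAGTGAAAggagga
PSMB8, chr6:32844030-32844059, minus strand: tctgtggcTTTCGCTTTCACTTCctcctcc

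Values per gene are CPM, the deposited counts per 1e+06 counts of the scaled library size. Total counts per library ranged from 32436524 to 43044456. AKR1B1 was at 153.8 ± 11.7 CPM in shAKR1B1, 1063 ± 103.1 CPM in shSORD and 1416 ± 34.7 CPM in plko libraries, and SORD at 30.5 ± 0.411 CPM in shAKR1B1, 8.62 ± 0.414 CPM in shSORD and 42.9 ± 1.19 CPM in plko libraries (SD, n = 3 each), so each shRNA lowered its target. The other enzyme fell as well: SORD with shAKR1B1 (log2 fold change -0.49, adjusted p = 6.43e-06) and AKR1B1 with shSORD (-0.41, adjusted p = 0.000131). All 6 epithelial markers were measured, while 4 of 6 alveolar type II markers were below the expression filter, NKX2-1 among them. Of 7 leukocyte markers 4 were below the filter, CD3E was at 0 in every library, and the summed level was 9.49 to 11.4 CPM in shAKR1B1, 9.33 to 11.6 CPM in shSORD and 10.97 to 12.2 CPM in plko libraries. Within that sum the myeloid markers moved in opposite directions: CD14 was lower in both knockdowns (mean 4.96 CPM in shAKR1B1, 3.39 CPM in shSORD and 8.81 CPM in plko), and ITGAM was higher (4.903 CPM in shAKR1B1, 6.64 CPM in shSORD and 2.68 CPM in plko), as was LYZ, which stayed under 1 CPM. Summed epithelial markers were at 12317 to 12941 CPM in shAKR1B1, 10748 to 12799.5 CPM in shSORD and 8686 to 8908 CPM in plko libraries. Of these 6 markers, 5 were higher in each knockdown, against 27.8% of all genes tested with shAKR1B1 and 27.5% with shSORD. KRT7 was lower in each (mean 1189 CPM in shAKR1B1, 1744 CPM in shSORD and 2015 CPM in plko). The KRT7 call with shSORD ended without plko replicate 1 (adjusted p = 0.09199), shSORD replicate 1 (adjusted p = 0.166) or shSORD replicate 3 (adjusted p = 0.0698), with upper-quartile scaling (adjusted p = 0.124) and with the filter of 1 CPM in 3 libraries (adjusted p = 0.0547). Whether these markers bear on the class I genes was not tested. In bulk RNA, fewer cells that express a gene and less RNA per cell cannot be told apart.

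Per kilobase of the longest principal transcript, B2M was the most abundant of the 9 genes in plko cells at 122.6 ± 2.29 CPM per kb (SD, n = 3). TAPBP followed at 49.4 ± 1.28 and HLA-C at 40.6 ± 1.77 CPM per kb. PSMB8 (13.6 ± 0.3898), PSMB9 (12.3 ± 1.36) and HLA-B (11.7 ± 0.333 CPM per kb) were close together, and the libraries of PSMB9 overlapped those of both neighbours. TAP1 stood at 10.6 ± 0.115, TAP2 at 5.85 ± 0.294 and NLRC5 at 0.949 ± 0.0375 CPM per kb. Over the length of all annotated exons, B2M stayed highest and NLRC5 lowest, but HLA-C came above TAPBP, and TAP1 above HLA-B, PSMB8 and PSMB9.

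With AKR1B1 knockdown, the transporter subunits, the immunoproteasome subunits PSMB8 and PSMB9 and the transactivator NLRC5 fell to between 52.6% and 62.6% of plko, and HLA-C rose slightly. In the edgeR fit 5 of the 9 genes were lower (TAP1, TAP2, PSMB8, PSMB9 and NLRC5) and 1 higher (HLA-C), while HLA-B, B2M and TAPBP did not pass the test. Of all 16916 genes tested, 29.6% were lower, 27.8% higher and 57.4% either, so the share of the 9 genes that changed at all (6 of 9) was near that of all genes. The libraries did not overlap, as lower, for 6 of the 9 genes, against 35.7% of all genes, and, as higher, for 1, against 33.5%. The median log2 fold change was -0.68 over the 9 genes and -0.0024 over all genes tested.

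With SORD knockdown, the class I chains, TAP1 and NLRC5 rose to between 121.3% and 165.5% of plko, and TAP2 fell. The test called 5 of the 9 genes higher (HLA-B, HLA-C, B2M, TAP1 and NLRC5) and 1 lower (TAP2), while TAPBP, PSMB8 and PSMB9 did not pass. Of all genes tested, 27.5% were higher, 29.0% lower and 56.5% either, again near 6 of 9. The libraries did not overlap, as higher, for 5 of the 9 genes, against 29.1% of all genes, and, as lower, for 1, against 31.0%. The median log2 fold change was 0.28 over the 9 genes and -0.0020 over all genes tested. Both knockdowns were set against the same plko libraries, so their fold changes share that error. Summed fibroblast markers stood in the same order of groups as TAP1 and NLRC5, at 8.51 to 10.1 CPM in shAKR1B1, 33.8 to 52.9 CPM in shSORD and 14.4 to 16.2 CPM in plko libraries (5 genes, none at 0 in every library of a group). COL1A1 made up most of the sum (mean 8.92 CPM in shAKR1B1, 36.4 CPM in shSORD and 14.99 CPM in plko). Of the 4 measured, 1 was higher (LUM, under 1 CPM), 1 lower (COL1A1) and 2 not called with shAKR1B1, and 4 were higher with shSORD; their part in the result was not tested.

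**Figure D1:**
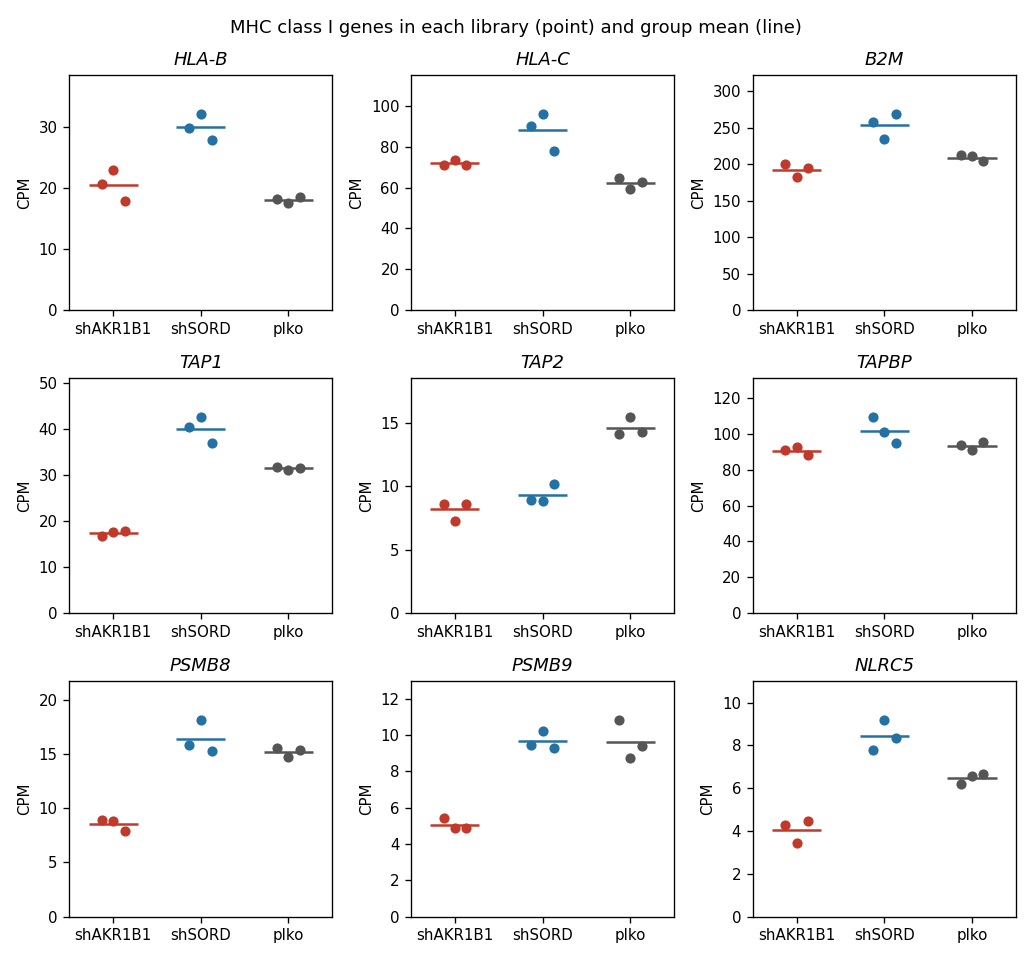
CPM of each of the 9 genes (vertical axes, linear from 0) in the 3 libraries of shAKR1B1, shSORD and plko; points are libraries and lines group means. TAP1, PSMB8, PSMB9 and NLRC5 are lowest in every shAKR1B1 library, HLA-B and HLA-C are highest in every shSORD library, and TAP2 is highest in every plko library.

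Among the heavy chains, HLA-B had 20.6, 22.9 and 17.9 CPM in shAKR1B1 libraries, 29.8, 32.1 and 27.8 CPM in shSORD libraries and 18.1, 17.5 and 18.6 CPM in plko libraries. The shSORD libraries all lay above the other groups, and the shAKR1B1 libraries overlapped plko. HLA-B rose 1.66-fold with shSORD (log2 fold change 0.73, SE 0.0867, adjusted p = 5.53e-06). With shAKR1B1 its log2 fold change was 0.18 (95% confidence interval -0.010 to 0.37, adjusted p = 0.0972). That value passed without shAKR1B1 replicate 3 (0.27, adjusted p = 0.0173) or shSORD replicate 3 (0.19, adjusted p = 0.0418), with upper-quartile scaling (0.24, adjusted p = 0.0338) and in a fit of the 6 libraries compared (0.19, adjusted p = 0.0202).

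HLA-C had 70.8, 73.4 and 71.1 CPM in shAKR1B1 libraries, 90.3, 95.99 and 77.9 CPM in shSORD libraries and 64.8, 59.5 and 62.9 CPM in plko libraries. The 3 groups did not overlap. HLA-C rose 1.41-fold with shSORD (log2 fold change 0.50, SE 0.0709, adjusted p = 3.15e-05) and 1.15-fold with shAKR1B1 (0.20, SE 0.0711, adjusted p = 0.0246). The call with shAKR1B1 ended without plko replicate 2 (0.17, adjusted p = 0.105), plko replicate 3 (0.21, adjusted p = 0.0582), shAKR1B1 replicate 1 (0.21, adjusted p = 0.0504) or shAKR1B1 replicate 2 (0.19, adjusted p = 0.0784). Class I heavy-chain genes are alike in sequence and vary between people, and the annotated span of HLA-B covers HLA-C on the same strand, so the split of reads between them is uncertain.

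The light chain B2M had 199.9, 182.1 and 194.9 CPM in shAKR1B1 libraries, 257.1, 234.8 and 268.7 CPM in shSORD libraries and 212.1, 210.6 and 204.7 CPM in plko libraries. The shSORD libraries were highest and the shAKR1B1 libraries lowest, with no overlap. It rose 1.21-fold with shSORD (log2 fold change 0.28, SE 0.05797, adjusted p = 0.000856). With shAKR1B1 the log2 fold change was -0.12 (95% confidence interval -0.25 to 0.0029, adjusted p = 0.0877). That value passed, as lower, without shSORD replicate 2 (-0.12, adjusted p = 0.0318) and in the fit of the 6 libraries compared (-0.11, adjusted p = 0.0241).

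The transporter subunits both fell with shAKR1B1 and moved apart with shSORD. TAP1 had 16.7, 17.6 and 17.9 CPM in shAKR1B1 libraries, 40.4, 42.6 and 36.97 CPM in shSORD libraries and 31.8, 31.1 and 31.5 CPM in plko libraries. Each group was separate from the others. TAP1 fell to 55.2% of plko with shAKR1B1 (log2 fold change -0.86, SE 0.0685, adjusted p = 7.32e-08) and rose to 127.1% with shSORD (0.35, SE 0.0656, adjusted p = 0.000399).

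TAP2 had 8.64, 7.302 and 8.65 CPM in shAKR1B1 libraries, 8.96, 8.87 and 10.2 CPM in shSORD libraries and 14.1, 15.5 and 14.3 CPM in plko libraries. All 6 knockdown libraries lay below all plko libraries. TAP2 fell to 56.1% of plko with shAKR1B1 (log2 fold change -0.84, SE 0.0906, adjusted p = 1.78e-06) and to 63.9% with shSORD (-0.65, SE 0.0891, adjusted p = 2.30e-05). As a percentage of TAP2 counts, TAP1 counts were 213.5 ± 24.6% in shAKR1B1, 431.3 ± 60.8% in shSORD and 215.8 ± 12.7% in plko libraries (SD, n = 3 each). The lowest ratio in shSORD libraries, 363.1%, lay above the highest in the other groups, 240.9%.

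Tapasin (TAPBP) had 90.7, 92.5 and 87.9 CPM in shAKR1B1 libraries, 109.2, 101.2 and 94.6 CPM in shSORD libraries and 93.7, 90.7 and 95.5 CPM in plko libraries. Both knockdown groups overlapped plko. Its log2 fold change was -0.046 with shAKR1B1 (95% confidence interval -0.17 to 0.080, adjusted p = 0.527) and 0.12 with shSORD (-0.0024 to 0.25, adjusted p = 0.0873). With shSORD it passed without shSORD replicate 3 (0.19, adjusted p = 0.00409), with upper-quartile scaling (0.20, adjusted p = 0.0115) and with at least 1 CPM required in 3 libraries (0.16, adjusted p = 0.0264). With shAKR1B1 its sign turned with upper-quartile scaling (0.014, adjusted p = 0.851).

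The immunoproteasome subunits PSMB8 and PSMB9 were lower in AKR1B1 knockdown and did not pass the test in SORD knockdown. PSMB8 had 8.88, 8.81 and 7.91 CPM in shAKR1B1 libraries, 15.9, 18.1 and 15.3 CPM in shSORD libraries and 15.5, 14.7 and 15.4 CPM in plko libraries. The shAKR1B1 libraries lay below the other groups, which overlapped each other. PSMB8 fell to 55.97% of plko with shAKR1B1 (log2 fold change -0.84, SE 0.0848, adjusted p = 8.60e-07), and with shSORD its log2 fold change was 0.11 (95% confidence interval -0.060 to 0.28, adjusted p = 0.253). PSMB9 had 5.42, 4.88 and 4.89 CPM in shAKR1B1 libraries, 9.43, 10.2 and 9.305 CPM in shSORD libraries and 10.8, 8.72 and 9.36 CPM in plko libraries. Its groups stood in the same way. PSMB9 fell to 52.6% of plko with shAKR1B1 (log2 fold change -0.93, SE 0.09996, adjusted p = 1.65e-06), and with shSORD its log2 fold change was 0.0032 (95% confidence interval -0.20 to 0.20, adjusted p = 0.9802). PSMB9 overlaps TAP1 and PSMB8 on the opposite strand, and PSMB8-AS1, with 18 to 42 counts per library, overlaps all 3. The strand setting of the counting is not given in the sources used here, so any reads where these genes overlap cannot be assigned with certainty.

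Most genes of the constitutive proteasome core fell in both knockdowns. Of 13 core genes, 10 were lower and 0 higher with shAKR1B1, and 11 lower and 0 higher with shSORD. This stood against 29.6% of all genes tested lower with shAKR1B1 and 29.0% with shSORD. PSMB3 matched no single gene ID and is not among the 13 core genes. The median log2 fold change of the core genes was -0.24 with shAKR1B1 and -0.33 with shSORD. PSMB2 fell by 0.61 with shAKR1B1 and 0.35 with shSORD on the log2 scale, and PSMB5 by 0.44 with shAKR1B1 and 0.48 with shSORD. As a percentage of its counterpart PSMB5, PSMB8 counts were 6.74 ± 0.487% in shAKR1B1, 13.4 ± 0.803% in shSORD and 8.89 ± 0.312% in plko libraries (SD, n = 3 each). Against PSMB6, PSMB9 counts were 2.54 ± 0.234% in shAKR1B1, 5.14 ± 0.2998% in shSORD and 4.07 ± 0.366% in plko libraries. For both pairs all shAKR1B1 libraries were lowest and all shSORD libraries highest. With shSORD neither PSMB8 nor PSMB9 passed the test, so a higher ratio there is not a call of more PSMB8 or PSMB9 RNA. Mean PSMB5 was 122.7 CPM in shSORD and 171.6 CPM in plko. Mean PSMB6 was 188.3 CPM in shSORD and 236.1 CPM in plko. Against PSMB7, counts of PSMB10, the remaining immunoproteasome subunit, were 2.21 ± 0.0936% in shAKR1B1, 2.74 ± 0.397% in shSORD and 1.95 ± 0.192% in plko libraries, so plko was lowest. PSMB10 itself did not pass (log2 fold change -0.12, adjusted p = 0.412, with shAKR1B1 and 0.13, adjusted p = 0.396, with shSORD). These ratios are not corrected for transcript length, are compared only between groups and were given no test.

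**Figure D2:**
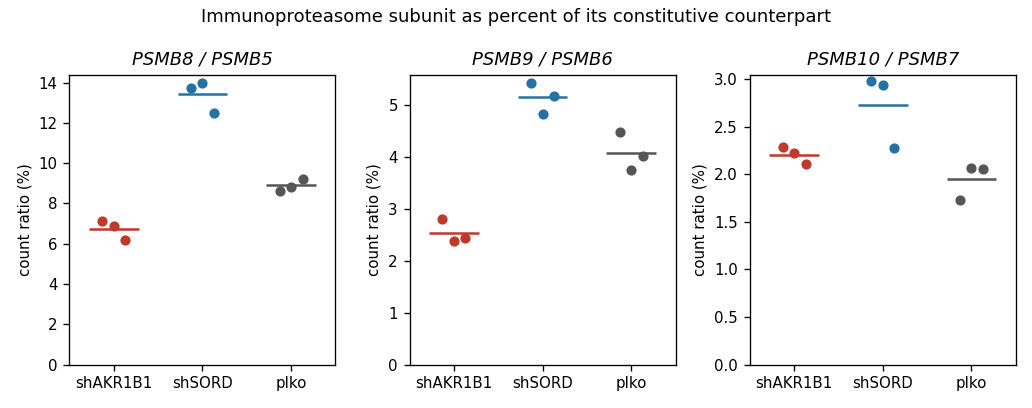
Counts of each immunoproteasome subunit as a percentage of its constitutive counterpart (vertical axes from 0) in shAKR1B1, shSORD and plko; points are libraries and lines group means. PSMB8 to PSMB5 and PSMB9 to PSMB6 are lowest in shAKR1B1 (means 6.74% and 2.54%) and highest in shSORD (13.4% and 5.14%), and PSMB10 to PSMB7 is lowest in plko (1.95%). PSMB8 and PSMB9 themselves did not pass the test with shSORD against plko.

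NLRC5, which drives transcription of class I genes, had 4.29, 3.43 and 4.45 CPM in shAKR1B1 libraries, 7.77, 9.17 and 8.33 CPM in shSORD libraries and 6.19, 6.58 and 6.67 CPM in plko libraries. Behind these stood 140, 139 and 192 counts in shAKR1B1, 300, 376 and 332 counts in shSORD and 224, 248 and 262 counts in plko libraries. The 3 groups did not overlap. NLRC5 fell to 62.6% of plko with shAKR1B1 (log2 fold change -0.68, SE 0.114, adjusted p = 0.000137) and rose to 130.0% with shSORD (0.38, SE 0.106, adjusted p = 0.00687).

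With the knockdowns set directly against each other, RNA of most of the 9 genes was lower in shAKR1B1 than in shSORD libraries. Of the 9 genes 8 were lower and 0 higher in shAKR1B1, against 15.1% lower, 15.5% higher and 30.7% either among all genes tested. All shAKR1B1 libraries lay below all shSORD libraries for 9 of the 9 genes, against 20.1% of all genes, and above them for 0, against 20.0%. The median log2 fold change was -0.55 over the 9 genes and 0.010 over all genes tested. TAP1 differed most (log2 fold change -1.20, SE 0.06802, adjusted p = 6.82e-09), then NLRC5 (-1.06, SE 0.111, adjusted p = 4.28e-06), PSMB8 (-0.95, adjusted p = 6.89e-07) and PSMB9 (-0.93, adjusted p = 4.74e-06). The chains differed less, with HLA-B at -0.55 (adjusted p = 0.000184), B2M at -0.40 (adjusted p = 9.40e-05) and HLA-C at -0.29 (adjusted p = 0.00524). TAP2 did not pass (-0.19, 95% confidence interval -0.39 to 0.0093, adjusted p = 0.1403). TAPBP was close to the threshold (-0.17, adjusted p = 0.04098). Its call ended without any 1 of the plko libraries (adjusted p = 0.0602 to 0.0653), without any 1 of the shAKR1B1 libraries (0.0687 to 0.133), without shSORD replicate 1 (-0.12, adjusted p = 0.184), with no expression filter (adjusted p = 0.0563) and in the fit of the 6 libraries compared (adjusted p = 0.0968).

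**Figure D3:**
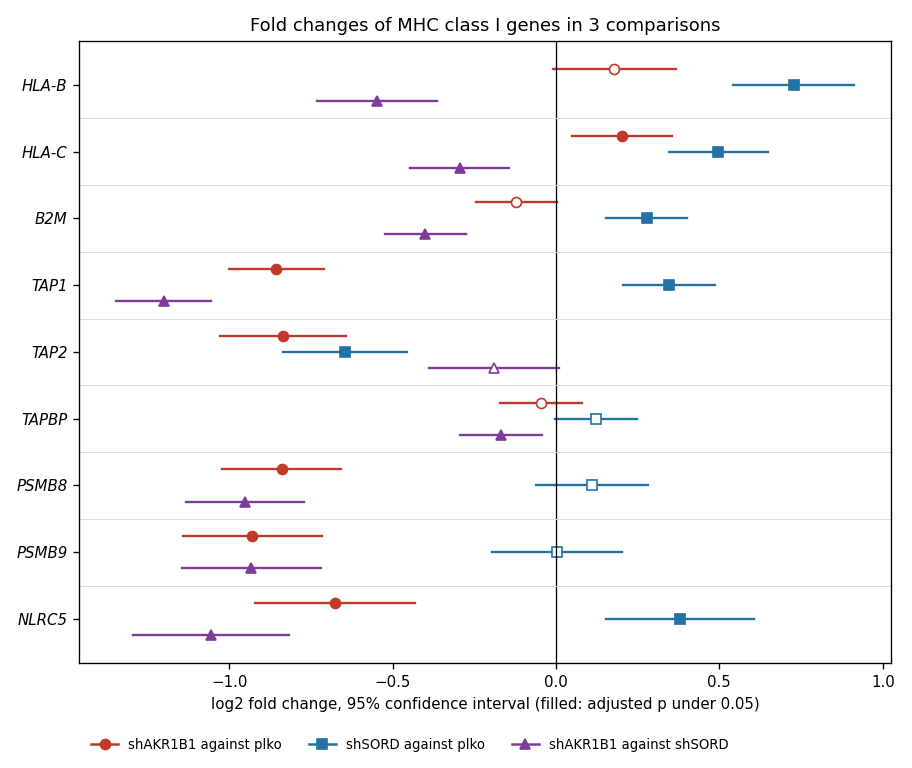
Log2 fold change (horizontal axis) with its 95% confidence interval for each gene (rows) in shAKR1B1 against plko, shSORD against plko and shAKR1B1 against shSORD; filled symbols passed an adjusted p of 0.05. Against plko, shAKR1B1 values of TAP1, TAP2, PSMB8, PSMB9 and NLRC5 lie between -0.93 and -0.68, and those of HLA-B, HLA-C, B2M and TAPBP between -0.12 and 0.20.

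Other genes of the class I pathway split as well. Of 12 measured, 2 were higher and 5 lower with shAKR1B1, and 5 higher and 1 lower with shSORD. Their median log2 fold changes were -0.21 and 0.14, and HLA-G was below the filter. Among all genes tested, 27.8% were higher and 29.6% lower with shAKR1B1, and 27.5% higher and 29.0% lower with shSORD. Either direction was called for 57.4% and 56.5% of all genes, near the share in this list. HLA-F, a nonclassical heavy chain, had 5.67, 6.34 and 5.03 CPM in shAKR1B1 libraries, 7.95, 7.12 and 6.09 CPM in shSORD libraries and 2.37, 2.76 and 2.11 CPM in plko libraries. It rose in both knockdowns (log2 fold change 1.23, adjusted p = 3.36e-06, with shAKR1B1 and 1.55, adjusted p = 3.21e-07, with shSORD). HLA-E, which is read by NK cells through NKG2A, rose as well (0.28 with shAKR1B1 and 0.49 with shSORD). MR1, which presents vitamin B metabolites to MAIT cells, had 9.59, 8.71 and 8.79 CPM in shAKR1B1 libraries, 20.4, 18.3 and 19.3 CPM in shSORD libraries and 13.5, 13.3 and 11.7 CPM in plko libraries. MR1 fell with shAKR1B1 (log2 fold change -0.51, adjusted p = 9.76e-05) and rose with shSORD (0.59, adjusted p = 1.84e-05). The proteasome activator subunit PSME2 fell with shAKR1B1 (-0.32), and with shSORD its value was -0.13 (adjusted p = 0.0508). The chaperone calreticulin (CALR) fell with shAKR1B1 (-0.27) and with shSORD (-0.13, adjusted p = 0.0403), but the shSORD call ended in 12 of 16 alternatives, among them each plko library left out (adjusted p = 0.0987 to 0.119), shAKR1B1 replicate 2 (adjusted p = 0.0519) or 3 (adjusted p = 0.0519) left out, and shSORD replicate 1 (adjusted p = 0.217) or 3 (adjusted p = 0.142) left out. The peptide-trimming aminopeptidase ERAP1 fell with shAKR1B1 (-0.23, adjusted p = 0.0215) and rose with shSORD (0.23); ERAP2 rose with shSORD (0.37), and with shAKR1B1 its value was -0.24 (adjusted p = 0.116). The ERAP1 call with shAKR1B1 ended without plko replicate 1 (adjusted p = 0.0908) or 3 (adjusted p = 0.0611), without shAKR1B1 replicate 2 (adjusted p = 0.0738) or 3 (adjusted p = 0.0501) and with upper-quartile scaling (adjusted p = 0.0687). Without plko replicate 2 both calls with shSORD ended (0.20, adjusted p = 0.07803, for ERAP1 and 0.34, adjusted p = 0.0602, for ERAP2).

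Regulators of class I transcription did not move in a single direction. Of 15, 2 were higher and 6 lower with shAKR1B1, and 2 higher and 6 lower with shSORD. Their median log2 fold changes were -0.17 and -0.018. Of all genes tested, 27.8% were higher and 29.6% lower with shAKR1B1, and 27.5% higher and 29.0% lower with shSORD. The share called in either direction was near that of all genes (57.4% and 56.5%). The list pooled activators with the repressor subunits EZH2, EED and SUZ12, so its counts do not describe activators alone. IRF1, the interferon-induced activator, fell with shAKR1B1 (log2 fold change -0.31, adjusted p = 0.00358), and with shSORD its value was -0.018 (adjusted p = 0.857). It was lower in shAKR1B1 than in shSORD (-0.29, adjusted p = 0.01097), a call that ended without shAKR1B1 replicate 3 (-0.23, adjusted p = 0.0652). IRF2, which binds the same element as IRF1, rose with both (0.73 with shAKR1B1 and 0.66 with shSORD). RFXANK, a subunit of the RFX complex with which NLRC5 acts, fell with both (-0.27 with shAKR1B1 and -0.73 with shSORD), as did NFYC of the CCAAT-binding factor (-0.36 and -0.42). Other subunits of these complexes did not all fall. NFYB, of the same factor as NFYC, rose with shAKR1B1 (0.31, adjusted p = 0.00191). Mean NFYA was 32.1 CPM in shAKR1B1, 32.2 CPM in shSORD and 37.9 CPM in plko. Mean RFX5, of the RFX complex, was 72.5 CPM in shAKR1B1, 85.4 CPM in shSORD and 70.9 CPM in plko. RFX5 was lower in shAKR1B1 than in shSORD (-0.24, adjusted p = 0.00290). The NF-kappaB subunit RELA also fell with both (-0.22 with shAKR1B1 and -0.48 with shSORD). The RELA call with shAKR1B1 ended without plko replicate 1 (adjusted p = 0.0521) or shAKR1B1 replicate 1 (adjusted p = 0.0571) and with upper-quartile scaling (adjusted p = 0.0658). The repressor subunit SUZ12 fell with shSORD (-0.39, adjusted p = 0.00433).

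Genes of interferon signalling were more often higher than lower. Of 12, 6 were higher and 2 lower with shAKR1B1, and 8 higher and 0 lower with shSORD. Their median log2 fold changes were 0.18 and 0.25. For comparison, 27.8% of all genes tested were higher and 29.6% lower with shAKR1B1, and 27.5% higher and 29.0% lower with shSORD. The genes of this list named here all rose. IRF9 and STAT2, which act together downstream of type I interferon, rose in both knockdowns: the log2 fold change was 1.19 with shAKR1B1 and 1.09 with shSORD for IRF9, and 0.83 and 0.87 for STAT2. The receptor chain IFNAR2 (0.53 with shAKR1B1 and 0.52 with shSORD) and the kinase JAK2 (0.32 and 0.52) rose too.

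Of 9 MHC class II genes 3 were measured, and all 3 were higher in both knockdowns. The share of all genes tested that was higher was 27.8% with shAKR1B1 and 27.5% with shSORD. CIITA, HLA-DRA, HLA-DRB1, HLA-DPA1, HLA-DPB1 and CD74 were below the filter. HLA-DMB, which with HLA-DMA edits the peptides of class II molecules, had 36.7, 33.6 and 32.3 CPM in shAKR1B1 libraries, 8.49, 6.24 and 5.24 CPM in shSORD libraries and 4.998, 4.19 and 4.48 CPM in plko libraries. It rose 7.501-fold with shAKR1B1 (log2 fold change 2.91, adjusted p = 1.89e-10) and 1.46-fold with shSORD (0.55, adjusted p = 0.00525). HLA-DMA rose 2.86-fold with shAKR1B1 and 2.12-fold with shSORD. The lysosomal protease CTSS rose 1.26-fold with shAKR1B1 and 1.68-fold with shSORD.

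Of 8 ligands of NK and T cell receptors measured, 6 were lower and 0 higher with shAKR1B1 (CD274 and RAET1E were not called), against 29.6% lower among all genes. With shSORD 2 were lower and 3 higher, against 29.0% lower and 27.5% higher among all genes. Their median log2 fold changes were -0.32 with shAKR1B1 and -0.0030 with shSORD. The NKG2D ligands ULBP2 (-1.07), ULBP1 (-0.80) and ULBP3 (-0.70) fell with shAKR1B1, and ULBP3 also with shSORD (-0.79). RAET1G, another NKG2D ligand, was at 3.58 ± 0.259 CPM in shAKR1B1, 7.99 ± 0.151 CPM in shSORD and 4.54 ± 0.176 CPM in plko libraries (SD, n = 3 each). MICB, of the same receptor, was at 6.69 ± 0.784 CPM in shAKR1B1, 13.6 ± 0.781 CPM in shSORD and 8.22 ± 0.398 CPM in plko libraries. Both rose with shSORD (log2 fold change 0.82 for RAET1G and 0.73 for MICB) and fell with shAKR1B1 (-0.35 and -0.29). MICA, also a ligand of NKG2D, fell with shSORD (-0.49, adjusted p = 0.000106). The MICB call with shAKR1B1 ended without plko replicate 1 (adjusted p = 0.0781) or 2 (adjusted p = 0.0577), without shAKR1B1 replicate 1 (adjusted p = 0.06297) or 2 (adjusted p = 0.0992) and with upper-quartile scaling (adjusted p = 0.0532).

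**Figure D4:**
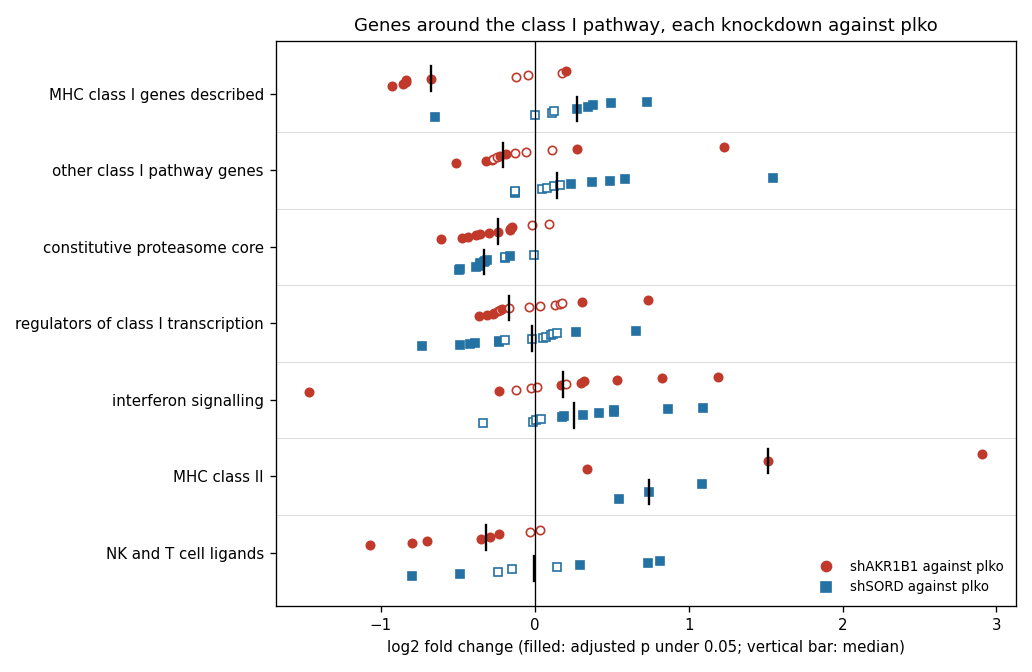
Log2 fold change (horizontal axis) of each measured gene by list (rows) in shAKR1B1 against plko and shSORD against plko; filled symbols passed an adjusted p of 0.05 and bars are medians. The constitutive proteasome core lies mostly below 0 in both comparisons, with medians of -0.24 and -0.33, and the 9 class I genes have medians of -0.68 and 0.28.

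The 9 genes differed in how alike their profiles were over the 9 libraries. Taking log2 CPM less its plko mean, PSMB8 and PSMB9 were the closest pair, with a root-mean-square difference of 0.11, followed by B2M and TAPBP (0.14), TAP1 and PSMB8 (0.15), HLA-B and HLA-C (0.16) and TAP1 and NLRC5 (0.16). HLA-B and TAP2 were the farthest apart (1.00). Among 13212 other genes, those closest to NLRC5 were BEND6 (0.11), CARMIL3 (0.11), CASC15 (0.12), CDKN1A (0.13) and ANTXR1 (0.13); CDKN1A is a cell cycle inhibitor. Closest to the mean of the 9 genes were the protease CAPN2 (0.061), the kinase MAPK12 (0.063), the transcription factor SOX4 (0.067), ITPRIP (0.067) and the growth factor PDGFA (0.068).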

How the data were processed

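Libraries were made with the TruSeq stranded mRNA kit, per the labels' protocols. The submitters' processing notes list GRCh37 and, with no order or role, STAR 2.5.2b, featureCounts 1.5.1, cutadapt 1.9.1 and DESeq2 1.12.3. The deposited values are the authors' raw read counts, 1 whole number per Ensembl gene and library. Neither the annotation, the strand setting nor the handling of multiply placed reads is given in the sources used here. Symbols matched 51996 of 57905 IDs. Lengths came from GENCODE release 29, on another build, so counted genes are given no coordinates.

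A quasi-likelihood model in edgeR 4.0.16 (R 4.3.3) was fitted to all 9 libraries with a mean for each group, after TMM scaling and filterByExpr, which kept 16916 genes; p-values were adjusted by Benjamini-Hochberg over these. "Rose", "fell", "higher" and "lower" of a gene mark an adjusted p under 0.05. Each SE was derived from the fold change and its F statistic. The main test, written anew, was tried on simulated counts for shAKR1B1 against plko only, with the same spread for every gene. The other steps were not tried in this way. Libraries of a group differed by 2.37 to 26.9 times the sampling noise (chi-square over its degrees of freedom), more than re-counting of the same library would give; separate preparations of the same culture would also differ beyond that noise. Alternatives were RLE and upper-quartile scaling, DESeq2 1.42.0, no filter, a filter of 1 CPM in 3 libraries, the 6 compared libraries alone, a replicate block and each library left out. The 9 genes and all lists were chosen with earlier results of these data known. All 9 are described; from each other list up to 5 genes per comparison could be named, those with the largest change past the test and at least 50 counts per library on average, and PSMB10, the markers named singly, and values of a gene in a comparison where the rule does not name it were added after their values were seen. A gene of the interferon signalling list that the rule would name is counted with its list and not reported here.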

Additional observations from a re-analysis of the deposited data

How the results depend on the processing

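The 27 fold changes of the 9 genes (3 comparisons) were recomputed under 16 alternatives: 405 of 432 values kept direction and side of the threshold, 13 lost the call, 9 gained it and 5 changed sign. No call of the 9 genes changed with RLE scaling, DESeq2 or the replicate block. The values that changed sign were not called: TAPBP with shAKR1B1 was 0.014 with upper-quartile scaling, and PSMB9 with shSORD was -0.0077 with no expression filter and -0.063 to 0.10 with a library left out, below 0 without plko replicate 2 or 3 or shSORD replicate 2. The number of class I genes called higher with shAKR1B1 was 1 (HLA-C), 2 with upper-quartile scaling, 2 in the fit of the 6 libraries compared and 0 to 2 with a library left out; the cause was not tested. Upper-quartile scaling moved the share of higher calls among all called genes to 56.5% with shAKR1B1 and 58.4% with shSORD, in place of 48.4% and 48.7%. Shared replicate numbers did not meet the rule for paired libraries (every same-numbered correlation of deviations over 0.1): 2 of 9 did (range -0.0303 to 0.172), and 9 of 18 best matches had the same number. Between shAKR1B1 and shSORD the 3 same-numbered correlations were 0.0873, 0.172 and 0.126, all above the 6 others (-0.152 to 0.0272), a hint from the data and not from the design. With the replicate block, 9994 genes were called with shAKR1B1, 9817 with shSORD and 5643 between the knockdowns, in place of 9716, 9565 and 5186. Depth limited NLRC5 most among the 9 genes, with 139 to 376 counts per library.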
